A study of Homo sapiens with 12 samples.

Results

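Cytosolic and mitochondrial chaperones and proteases were followed as a set of 39 named genes among the 57500 genes counted in each library. All 39 were found by symbol, and all 39 passed the filter on low counts in every comparison. They were taken in 3 classes, which are 20 cytosolic heat shock genes with the transcription factor HSF1, the 8 subunits of the CCT chaperonin, and 11 mitochondrial chaperones and proteases. RNA was sequenced from HepG2, a human hepatocellular carcinoma line, in 3 groups of 4 libraries, all from cells kept for 24 h in ordinary medium with 400 µM glycine. WT was the wild-type control. shTST cells carried an shRNA against TST, and overTST cells carried a codon-optimized TST coding sequence behind a CMV promoter, both delivered by lentivirus. TST, thiosulfate sulfurtransferase, is the mitochondrial enzyme that turns cyanide into thiocyanate, and the comparisons ask what less or more of it does to transcript levels. No source used here states that WT received an empty or scrambled vector, so the passage through virus and selection cannot be told apart from the change in TST.

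Libraries held 22911380 to 45120508 counts, and every overTST library had fewer than every WT library. The mitochondrially encoded share of counts was 6.84% to 8.65% in shTST and 10.8% to 11.7% in overTST, and WT libraries, with a lowest value of 6.91%, overlapped both ranges. The 9 hepatocyte markers checked were all detected, with ALB at 3625 to 6869 TPM, a level scaled for gene length and library size. In shTST, ALB, AFP and FGB were higher and APOB and TTR lower than in WT without overlap, and in overTST APOB and HNF4A were lower. Groups did not overlap with WT for 18.9% of all genes tested in shTST and 30.4% in overTST. AFP was at 2022 ± 195 CPM in WT and 2826 ± 336 in shTST, and APOB at 7872 ± 469 in WT and 5284 ± 486 in overTST (SD, n = 4 each), where CPM are counts scaled to the normalized library size. The part of these shifts in the results below was not tested. Of 8 markers of blood, vessel and connective tissue cells, PTPRC, CD3E, COL3A1, DCN and LUM had 0 to 5 counts in any library, and PECAM1, CDH5 and CD68 had 1 to 109. TST counts fell in shTST, from 49.2 ± 2.27 CPM in WT to 34.3 ± 1.72 (SD, n = 4 each), with a log2 fold change of −0.52 (SE 0.055, adjusted p = 3.2e-06). In overTST they were 57.3 ± 4.69 CPM (SD, n = 4), a log2 fold change of 0.24 (SE 0.062, adjusted p = 0.00384), with overlapping groups and an adjusted p of 0.201 after a correction for gene length. Counts on the native gene need not include the codon-optimized transgene, so this value does not measure its expression.

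Proteins fold with the help of chaperones that bind exposed hydrophobic stretches and let go in cycles driven by ATP. In the cytosol, HSP70 proteins (HSPA8 constitutively, HSPA1A and HSPA1B after stress) receive clients from J-domain proteins such as DNAJA1, are recharged by nucleotide exchange factors such as HSPH1 and BAG1, and pass some clients to HSP90. Many of these genes carry heat shock elements, short inverted GAA repeats bound by HSF1. CCT is a double-ring chaperonin that folds actin and tubulin, which prefoldin hands to it. In the mitochondrial matrix, HSPA9 is the HSP70, HSPD1 and HSPE1 form the chaperonin and its lid, and LONP1, CLPP with CLPX, and the AFG3L2 and SPG7 complex of the inner membrane degrade damaged proteins.

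The heat shock element was looked for in RefSeq promoter windows of GRCh38.p14, which run from 250 bases before to 50 bases after a transcription start and were at hand for 35 of the 39 genes. The motif was written GAANNTTCNNGAA or TTCNNGAANNTTC, which covers both strands, and overlapping matches were allowed. It occurred in 172 of 35116 windows of all genes (0.49%) and in windows of 6 of the 35 members, HSPA8, DNAJA1, HSP90AA1, HSP90AB1, DNAJB6 and HSPD1. A shorter form, GAANNTTC or TTCNNGAA, lies inside the longer one and occurred in 13.5% of all windows and in 17 of the 35 members. A member was counted if any of its windows matched, and some members have several windows. The shares of windows and of members are therefore unlike measures. The stretches below show the longer motif in the 6 genes, which include HSPA8, the member that fell most in overTST, and others that did not pass the test, and the shorter one in the near-identical pair HSPA1A and HSPA1B. Each is written 5′ to 3′ on the strand of its gene, with the matching bases in capitals.
HSPA8, chr11:123062345-123062374, minus strand: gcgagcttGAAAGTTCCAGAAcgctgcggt
HSPA8, chr11:123062170-123062199, minus strand: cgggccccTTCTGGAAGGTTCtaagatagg
DNAJA1, chr9:33025268-33025297, plus strand: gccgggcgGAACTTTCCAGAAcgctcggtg
HSP90AA1, chr14:102087111-102087140, minus strand: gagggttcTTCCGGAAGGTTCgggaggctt
HSP90AB1, chr6:44247770-44247799, plus strand: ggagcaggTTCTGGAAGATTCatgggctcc
HSP90AB1, chr6:44247823-44247852, plus strand: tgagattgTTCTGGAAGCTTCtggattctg
DNAJB6, chr7:157336865-157336894, plus strand: agagccgaGAACCTTCGCGAAggtggggcg
HSPD1, chr2:197500061-197500090, minus strand: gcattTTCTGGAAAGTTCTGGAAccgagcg
HSPA1A, chr6:31815426-31815455, plus strand: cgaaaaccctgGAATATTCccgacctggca
HSPA1B, chr6:31827622-31827651, plus strand: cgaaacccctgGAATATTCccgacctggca

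With TST silenced, 6 of the 39 members changed, 1 higher and 5 lower (adjusted p of 0.05 or less, edgeR's quasi-likelihood test with Benjamini-Hochberg adjustment over all genes tested). That is 15.4% of the members, beside 16.1% of the 14584 genes tested. Over all genes tested 6.69% were higher and 9.40% lower. HSPE1 rose, and HSF1, HSPA1A, HSPA8, HSPH1 and LONP1 fell. With TST overexpressed, 11 members changed, 6 higher and 5 lower, or 28.2% beside 33.9% of 14421 genes. Over all genes tested 15.7% were higher and 18.2% lower. HSPB1, BAG1, AHSA1, CCT7, HSPE1 and CLPP rose, and HSPA1A, HSPA8, HSPH1, DNAJA1 and DNAJA3 fell. The share of members changed was therefore near the share of all genes in both lines. Median log2 fold changes were also near 0, at −0.012 for shTST and 0.033 for overTST, beside 0.004 and 0.0019 over all genes tested. The libraries of shTST and WT did not overlap for 2 higher and 5 lower members (8.26% and 10.6% of all genes tested), and those of overTST and WT for 7 higher and 5 lower members, or 12 in all (12.7% and 17.7% of all genes, 30.4% together).

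**Figure D1:**
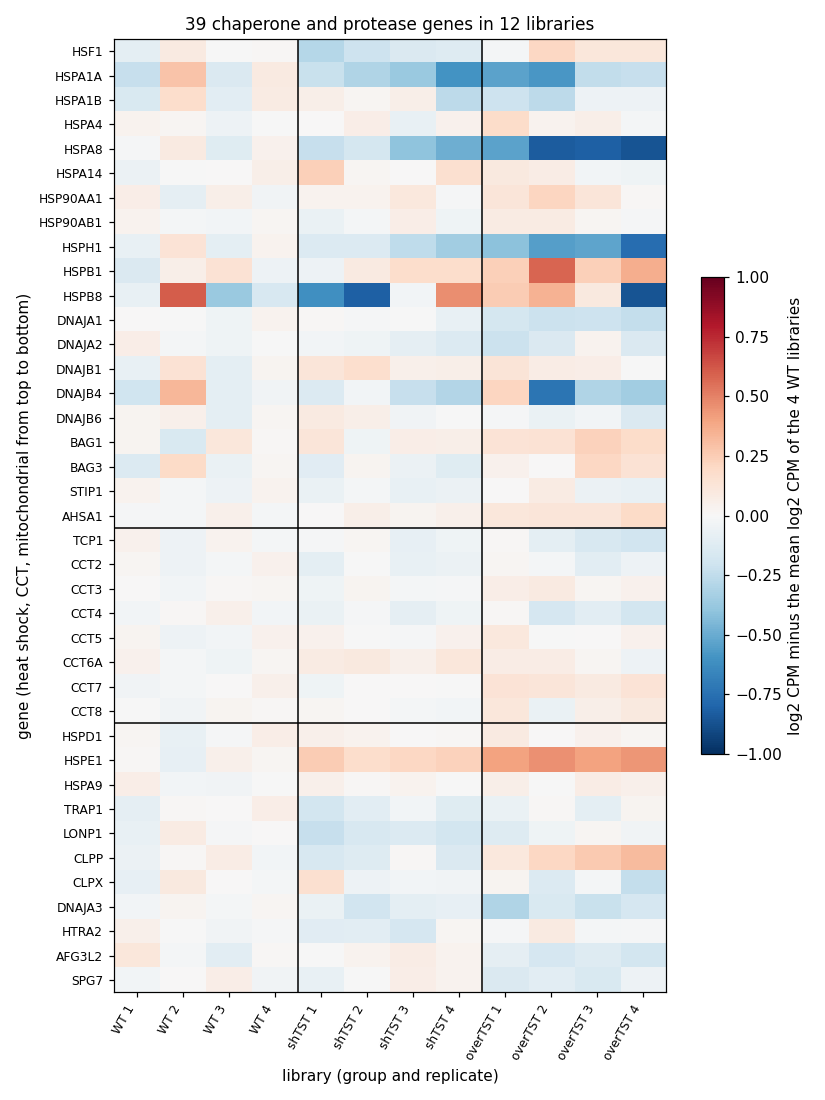
Log2 CPM of the 39 genes (rows, by class) in the 12 libraries (columns), each minus the mean log2 CPM of the 4 WT libraries, with colours ending at −1 and 1. HSPA8 and HSPH1 are blue in every shTST and overTST library, HSPE1 is red in all 8, most CCT rows stay pale, and HSPB8, at 0.36 to 0.997 CPM, varies within every group.

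Both lines were compared with the same 4 WT libraries, so their calls are not independent of each other. HSPA1A, HSPA8 and HSPH1 were lower and HSPE1 was higher in both, and 26 members passed in neither. The share of all genes that passed in both or in neither is not given here. These counts are therefore not read as a result about the members. The heat shock class held 10011 ± 129 CPM in WT, 9820 ± 243 in shTST and 9970 ± 352 in overTST (SD, n = 4 each). CCT genes summed to 3497 ± 53.7, 3484 ± 42.7 and 3562 ± 90.5 CPM in the same order, and mitochondrial members to 4172 ± 104, 4235 ± 29.6 and 4368 ± 45.9 CPM. The mitochondrial sum of every overTST library, at 4310 to 4421 CPM, was above that of every WT library, at 4038 to 4286, and the other class sums overlapped WT. Within the mitochondrial sum, HSPE1 alone was at 440 ± 17.8 CPM in WT and 591 ± 10.6 in overTST (SD, n = 4 each). Of the 11 mitochondrial members, 5 had a log2 fold change above 0 in overTST, beside 7257 of 14421 genes tested. The sums were not corrected for gene length. Both HSP90 genes are the largest part of the heat shock sum and HSPD1 of the mitochondrial sum.

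In overTST, changes across all genes went with gene length, shorter genes being higher, with a Spearman correlation of log2 fold change and exonic length of −0.404 over 14421 genes and −0.256 over the 39 members. In shTST these values were −0.09 and 0.0225. The points share libraries and scaling, so the correlations are descriptions. After the trend with length was removed from each library, 14 members passed in overTST, 8 higher and 6 lower, beside 28.5% of all genes under the same correction, and 6 passed in shTST, beside 17.9% of all genes. Length-corrected values stand below where they change a call.

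**Figure D2:**
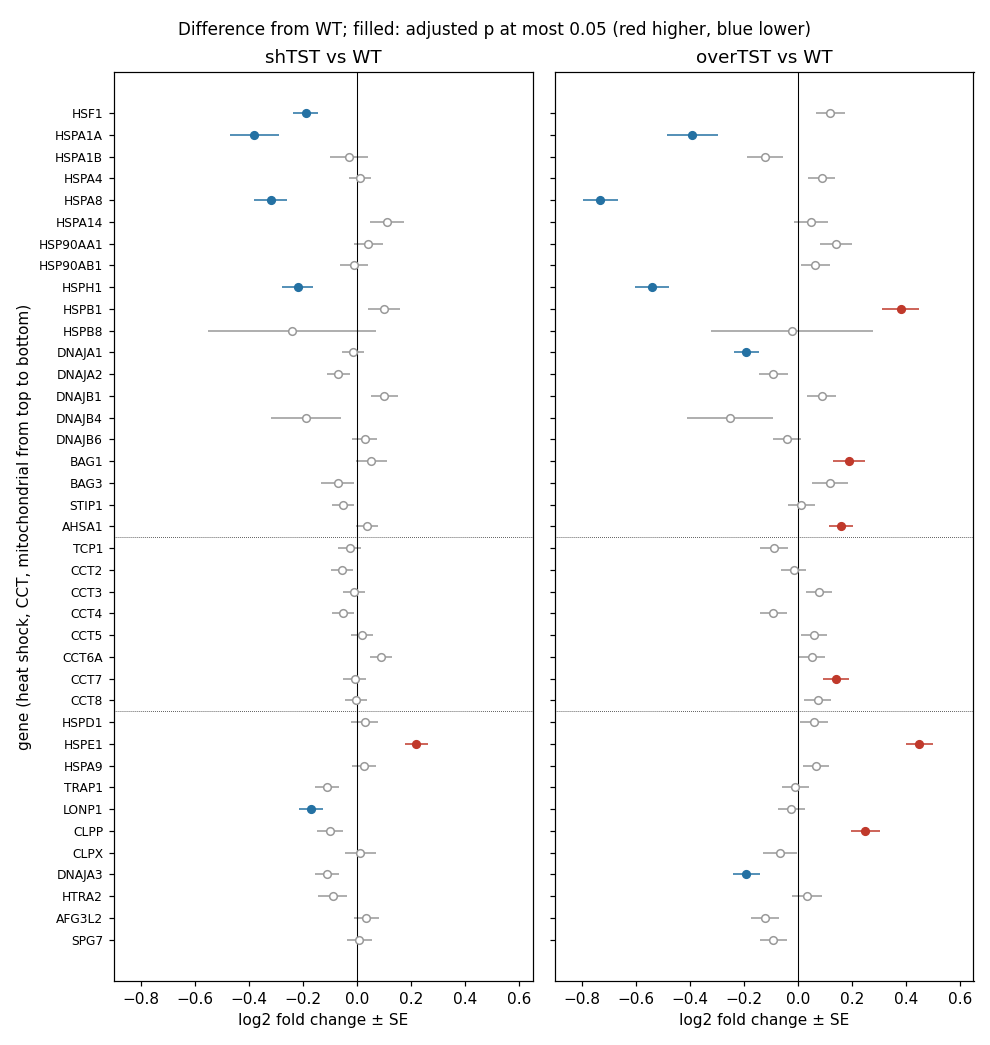
Log2 fold change against WT with its SE (x axis) for each of the 39 genes (rows, by class), in shTST on the left and overTST on the right, with genes past an adjusted p of 0.05 filled. HSPA8 at −0.32 and −0.73 and HSPE1 at 0.22 and 0.45 are filled on both sides, and most CCT genes lie within 0.1 of 0.

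Among heat shock members, 4 of 20 changed in shTST, all lower, and 7 of 20 in overTST, 3 higher and 4 lower. That is 20% and 35% of the class, near the 16.1% and 33.9% of all genes tested. The cytosolic HSP70 gene HSPA8 and its exchange factor HSPH1 fell in both lines, more in overTST than in shTST, while HSP90AB1 passed in neither and HSP90AA1 passed in overTST only under other settings, given below. HSPA1A also fell in both, but its near-identical neighbour HSPA1B did not pass. HSPB1, which encodes a small heat shock protein that holds unfolded proteins and binds actin, rose in overTST. Medians over the class were −0.023 and 0.031 on the log2 scale.

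HSPA8 (ENSG00000109971, chromosome 11, 123057489 to 123063230, GRCh38) encodes the constitutive HSP70. It was at 868, 936, 806 and 904 CPM in the 4 WT libraries, at 748, 775, 663 and 625 in shTST, and at 606, 492, 499 and 483 in overTST. The 3 groups do not overlap, and overTST replicate 1 stands above the rest of its group. In shTST the log2 fold change was −0.32 (SE 0.061, adjusted p = 0.00125), a level 0.802 times that of WT. In overTST it was −0.73 (SE 0.063, adjusted p = 1.6e-08), a level 0.601 times that of WT and the largest decrease of any member. In bulk RNA, fewer expressing cells and less RNA per cell cannot be told apart. The direct comparison put shTST 0.41 above overTST on the log2 scale (SE 0.068, adjusted p = 5.9e-05). For each comparison with WT taken alone, a two-sided exact permutation test of CPM gave p = 0.0286, the smallest that 4 against 4 allow. Per length, HSPA8 held 0.129 ± 0.00804 of the TPM of HSP90AB1 in WT, 0.105 ± 0.0123 in shTST and 0.0743 ± 0.00685 in overTST (SD, n = 4 each).

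HSPH1 (ENSG00000120694, chromosome 13, 31134974 to 31162388) encodes HSP110, which frees ADP from HSP70. WT libraries had 119, 138, 117 and 128 CPM, shTST libraries 114, 114, 105 and 98.4, and overTST libraries 94.2, 85.3, 87 and 73.7. Every library of either line lies below every WT library. The log2 fold change was −0.22 in shTST (SE 0.056, adjusted p = 0.0101) and −0.54 in overTST (SE 0.064, adjusted p = 1.2e-06), and the lines differed by 0.32 (SE 0.065, adjusted p = 4.8e-04). Without shTST replicate 4, the lowest of its group, the shTST value was −0.17 with an adjusted p of 0.0599.

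DNAJA1 encodes a farnesylated J-domain protein that brings clients to HSP70. Its levels were 322, 321, 312 and 330 CPM in WT and 324, 318, 320 and 305 in shTST, and 284, 276, 278 and 272 in overTST. Only the overTST group stands apart. Its log2 fold change was −0.19 in overTST (SE 0.045, adjusted p = 0.00218) and −0.016 in shTST (SE 0.041), which did not pass,, while the direct difference was 0.17 (SE 0.041, adjusted p = 0.00204). The remaining J-domain members, DNAJA2, DNAJB1, DNAJB4 and DNAJB6, did not pass in either line. DNAJB6, which suppresses aggregation of polyglutamine proteins, was at −0.04 in overTST and at 0.16 after length correction (adjusted p = 0.0131).

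**Figure D3:**
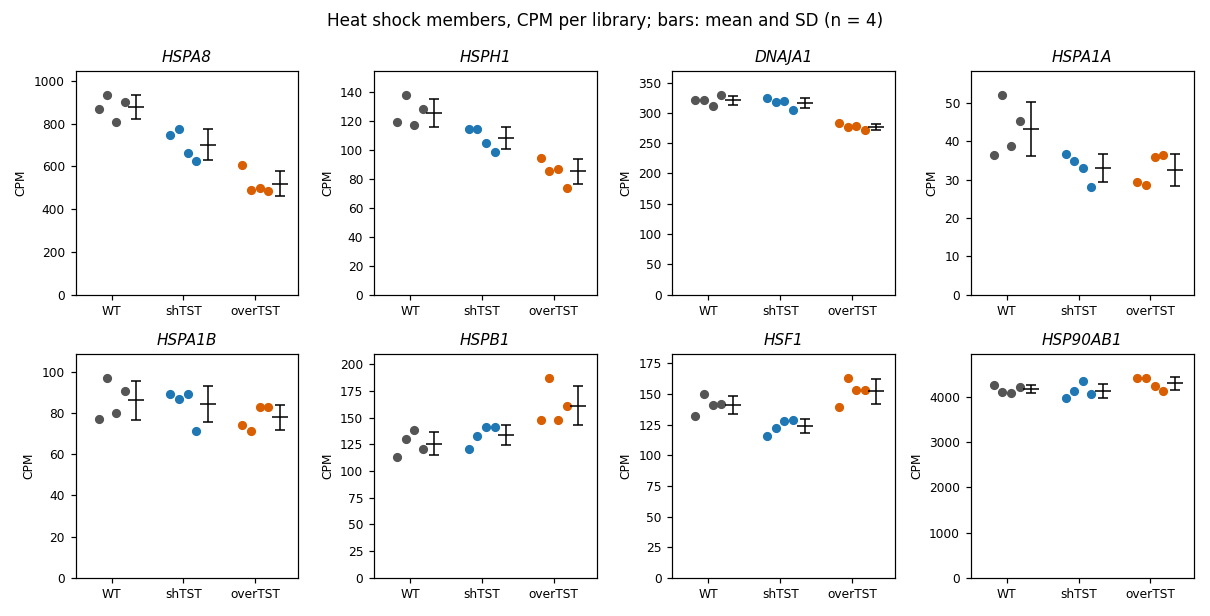
CPM per library (y axis, from 0) of 8 heat shock members in WT, shTST and overTST, each point a library, with the mean and SD of 4 beside it. HSPA8 and HSPH1 step down from WT to shTST to overTST, DNAJA1 is lower in overTST, and HSP90AB1 stays between 3988 and 4421 CPM.

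HSPA1A (ENSG00000204389, chromosome 6, 31815464 to 31817946) and HSPA1B (ENSG00000204388, chromosome 6, 31827735 to 31830255) both encode the stress-inducible HSP70. Their GENCODE transcripts share an identical run of 1715 bases, and 93.6% of the aligned positions in the 250 bases before their starts are the same. Reads from that run cannot be assigned to either gene, so the split of counts between them is uncertain. HSPA1A had 36.5, 52.2, 38.7 and 45.4 CPM in WT, 36.7, 34.8, 33 and 28.2 in shTST, and 29.5, 28.6, 36 and 36.5 in overTST. WT is higher on average but overlaps with shTST. In overTST the top library reaches the lowest WT library to the digits given. The log2 fold changes were −0.38 (SE 0.09, adjusted p = 0.00554) and −0.39 (SE 0.093, adjusted p = 0.00227), and the exact permutation test gave p = 0.0571 for each line.

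HSPA1B was at 77, 97.1, 79.9 and 90.7 CPM in WT, 89.5, 87, 89.4 and 71.4 in shTST, and 74.5, 71.4, 83 and 83 in overTST. The groups overlap, with log2 fold changes of −0.03 (adjusted p = 0.816) and −0.12 (adjusted p = 0.159). After length correction the overTST value was −0.23 with an adjusted p of 0.0124. With both genes added into 1, log2 fold changes were −0.14 in shTST (SE 0.074, adjusted p = 0.216) and −0.20 in overTST (SE 0.072, adjusted p = 0.0295). The ratio of HSPA1B to HSPA1A in TPM was 1.98 ± 0.107 in WT, 2.51 ± 0.114 in shTST and 2.36 ± 0.128 in overTST (SD, n = 4 each). The shTST call for HSPA1A was thus lost once the pair was added. HSPA6, the other strictly stress-inducible HSP70 gene, was at 0.156 CPM or less in every library and was not tested.

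HSF1 encodes the transcription factor that binds the elements shown above. Its transcript was at 132, 150, 141 and 142 CPM in WT, 116, 122, 128 and 129 in shTST, and 139, 163, 153 and 153 in overTST. Every shTST library was below every WT library, and overTST overlapped WT. It fell by 0.19 on the log2 scale in shTST (SE 0.047, adjusted p = 0.00783). In overTST the value was 0.12 (SE 0.054, adjusted p = 0.0811), and 0.17 after length correction (adjusted p = 0.0175). The lines differed directly by −0.31 (SE 0.052, adjusted p = 6.6e-05).

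HSPB1 (ENSG00000106211, chromosome 7, 76302544 to 76304295) had 113, 130, 138 and 121 CPM in WT, 121, 133, 141 and 141 in shTST, and 148, 187, 148 and 161 in overTST. All overTST libraries lie above all WT libraries. It rose by 0.38 on the log2 scale in overTST (SE 0.069, adjusted p = 1.5e-04) and was at 0.10 in shTST (SE 0.058, adjusted p = 0.267). The length-corrected rise was 0.22 (adjusted p = 0.0104). HSPB8, a small heat shock protein that works with BAG3 in autophagy of aggregates, was at 0.36 to 0.997 CPM, too low for a change of the size seen elsewhere in the class to be detected (SE 0.31 and 0.30).

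Of the cochaperones, BAG1, an exchange factor that links HSP70 to the proteasome, was at 63.1, 55.6, 67.1 and 62.5 CPM in WT and 68.1, 68.5, 72.5 and 70.4 in overTST. It rose by 0.19 on the log2 scale (SE 0.058, adjusted p = 0.0117). That call was lost without WT replicate 2 (adjusted p = 0.0542) and without overTST replicate 3 (adjusted p = 0.0518). AHSA1, which stimulates the HSP90 ATPase, was at 166, 165, 173 and 165 CPM in WT and 181, 182, 182 and 191 in overTST. Its rise of 0.16 (SE 0.046, adjusted p = 0.00867) was 0.089 after length correction (adjusted p = 0.128) and did not pass with no filter on low counts (adjusted p = 0.0523). BAG3 and STIP1, the adaptor between HSP70 and HSP90, passed in neither line, and BAG3 was lower in shTST than in overTST by 0.19 (SE 0.064, adjusted p = 0.0251).

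HSP90AB1 and HSP90AA1, the constitutive and the inducible HSP90, were the most abundant heat shock members. In WT they were at 3924 ± 355 and 1358 ± 180 TPM (SD, n = 4), and HSP90AB1 ranked 23 among all genes. HSPA8 followed at 506 ± 37.6 TPM, then DNAJA1 and STIP1 at 329 ± 24.7 and 311 ± 26.5. In each WT library DNAJA1 was above STIP1, at 354, 325, 340 and 297 TPM beside 342, 303, 318 and 279. HSP90AB1 had log2 fold changes of −0.012 and 0.065 (adjusted p = 0.907 and 0.388 with edgeR), and HSP90AA1 of 0.042 and 0.14 (adjusted p = 0.639 and 0.0689). In overTST the latter passed with DESeq2, at 0.14 (adjusted p = 0.0283), with upper-quartile scaling, at 0.17 (adjusted p = 0.0367), and after length correction, at 0.18 (adjusted p = 0.0191). HSPA4, a relative of HSPH1, was at 0.011 and 0.088 and did not pass, though in overTST it did after length correction, at 0.13 (adjusted p = 0.0359). HSPA14, an HSP70 bound to ribosomes, was at 0.11 and 0.049 and did not pass.

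Among 34 other heat shock genes and cochaperones read beside the members, 9 of 33 tested changed in shTST, 3 higher and 6 lower, and 14 of 32 in overTST, 8 higher and 6 lower. These are 27.3% and 43.8% of them, beside 16.1% and 33.9% of all genes, and the difference was not tested. In shTST the smallest p-values belonged to BAG6, CHORDC1 and BAG4. BAG6, which guards newly made membrane proteins, fell from 671 ± 31.9 to 564 ± 28.5 CPM (SD, n = 4 each), by 0.25 on the log2 scale (SE 0.047, adjusted p = 0.00116). CHORDC1, an HSP90 cochaperone, fell by 0.35 (SE 0.066, adjusted p = 0.00125), and BAG4 rose by 0.26 (SE 0.053, adjusted p = 0.0019). In overTST they belonged to HSPA4L, CDC37 and DNAJC2. HSPA4L, of the same HSP110 family as HSPH1, fell from 27 ± 2.13 to 19.7 ± 1.27 CPM, by 0.44 (SE 0.072, adjusted p = 5.7e-05). DNAJC2, the J-domain protein of the ribosome, rose by 0.38 (SE 0.064, adjusted p = 8.8e-05), and CDC37, which loads kinases onto HSP90, rose by 0.26 (SE 0.049, adjusted p = 2.2e-04).

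Of the CCT subunits, 0 of 8 passed in shTST with edgeR or with DESeq2, beside 16.1% of all genes tested with edgeR. CCT6A alone had an unadjusted p under 0.05, with a log2 fold change of 0.09 (edgeR adjusted p = 0.139). In overTST CCT7 rose and the other 7 did not pass, beside 33.9% of all genes. Log2 fold changes of the class ran from −0.056 to 0.09 in shTST and from −0.091 to 0.14 in overTST, with medians of −0.0089 and 0.057. SEs were 0.040 to 0.051, so changes much smaller than 0.1 could not be told from 0.

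CCT7 (ENSG00000135624, chromosome 2, 73233420 to 73253021) was at 871, 879, 895 and 925 CPM in WT, 865, 894, 896 and 889 in shTST, and 982, 968, 948 and 980 in overTST. The overTST libraries lie above all others. The log2 fold change was 0.14 (SE 0.048, adjusted p = 0.0254), and 0.11 after length correction (adjusted p = 0.0827). Without WT replicate 1, WT replicate 2 or overTST replicate 4 the adjusted p was 0.0769, 0.053 and 0.0632. CCT4 and TCP1, at −0.091 and −0.088 in overTST (adjusted p = 0.164 and 0.195), and CCT3, at 0.079 (adjusted p = 0.201), complete the smallest p-values there. After length correction CCT4 passed at −0.17 (adjusted p = 0.0108) and CCT5 at 0.12 (adjusted p = 0.0451).

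The 8 subunits share 1 complex in equal numbers, but their counts per exonic length were not equal. That length merges all annotated exons of a gene, so the order in TPM need not be that of transcript numbers. In WT they ran from 163 ± 13.8 TPM for CCT2 to 695 ± 50.5 for CCT7 (SD, n = 4). CCT3 was second at 394 ± 35.6, and CCT4 and CCT6A, at 305 ± 31.6 and 292 ± 26.4, lie close together. Within a library, the highest was 4.11 to 4.35 times the lowest in WT, 4.30 to 4.51 in shTST and 4.65 to 4.88 in overTST. Antisense annotation covers 30.1% of the exonic bases of CCT5, and ACAT2 on the opposite strand covers 8.05% of those of TCP1, so their levels depend on how strand was handled in counting.

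**Figure D4:**
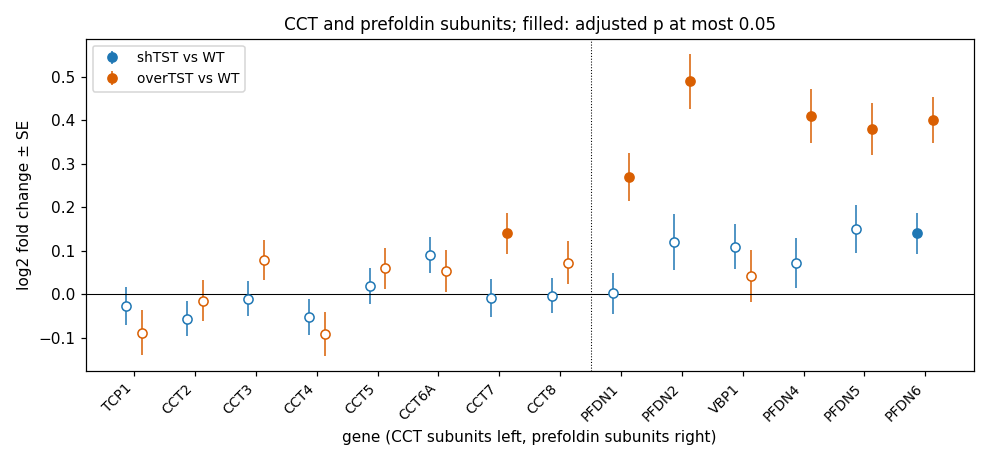
Log2 fold change against WT with its SE (y axis) for the 8 CCT subunits and the 6 prefoldin subunits (x axis), in shTST and overTST, with filled points past an adjusted p of 0.05. In overTST 5 prefoldin subunits lie between 0.27 and 0.49, and CCT subunits lie between −0.091 and 0.14.

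Prefoldin is the hexamer that delivers actin and tubulin to CCT. Its 6 genes were picked out of the companion list of 15 CCT partners after their values had been seen. In overTST, PFDN1, PFDN2, PFDN4, PFDN5 and PFDN6 rose, by 0.27 to 0.49 on the log2 scale, and VBP1 was at 0.043 (SE 0.060, adjusted p = 0.61). PFDN2 was at 48.7, 44.9, 51 and 43.4 CPM in WT, 56.1, 45.8, 50.9 and 51.2 in shTST, and 58.8, 67.3, 68.9 and 64.4 in overTST. Every overTST library was above every WT library (log2 fold change 0.49, SE 0.063, adjusted p = 3.4e-06). PFDN6 had 57.7, 59.5, 59.6 and 61.2 CPM in WT and 71.4, 79.1, 78.5 and 79.4 in overTST, a rise of 0.40 (SE 0.053, adjusted p = 5.1e-06). RGL2 and WDR46 on the opposite strand cover 24.5% and 7.65% of the exonic bases of PFDN6, so its level is uncertain without the strand setting. The CCT partners tested had a median exonic length of 2816 bases, beside 4479 over all genes, and length-corrected rises of these 5 were smaller, 0.14 to 0.33, all with an adjusted p of 0.0411 or less.

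Over all 15 partners, 9 were higher and 0 lower in overTST, beside 15.7% and 18.2% of all genes. After length correction 6 passed, the same 5 prefoldin genes and TBCA, beside 28.5% of all genes. TBCA, which holds beta-tubulin after CCT releases it, rose in both lines, by 0.22 in shTST (SE 0.052, adjusted p = 0.00512) and by 0.34 in overTST (SE 0.055, adjusted p = 4.7e-05). In shTST 3 partners passed, beside 16.1% of all genes, namely TBCA, PDCL at 0.22 (adjusted p = 0.0298) and PFDN6 at 0.14 (adjusted p = 0.039). PDCL and PFDN6 lost their calls when single libraries were left out, with adjusted p up to 0.0792 and 0.113.

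Among mitochondrial members, 2 of 11 changed in shTST and 3 of 11 in overTST. That is 18.2% and 27.3% of the class, near the 16.1% and 33.9% of all genes tested. HSPE1, the lid of the chaperonin, rose in both lines while HSPD1, the barrel it caps, did not pass in either. LONP1, the matrix AAA+ protease that degrades oxidized proteins, fell in shTST, and CLPP, the proteolytic chamber that pairs with the unfoldase CLPX, rose in overTST. HSPA9, the matrix HSP70, and TRAP1, the matrix HSP90, did not pass. Class medians were 0.0088 and −0.0094 on the log2 scale.

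HSPE1 (ENSG00000115541, chromosome 2, 197499994 to 197503457) was at 443, 415, 456 and 447 CPM in WT, 524, 498, 509 and 515 in shTST, and 581, 603, 583 and 596 in overTST. The 3 groups are fully separate. It rose by 0.22 on the log2 scale in shTST (SE 0.044, adjusted p = 0.00199) and by 0.45 in overTST (SE 0.049, adjusted p = 4.4e-07), the largest increase of any member in either line. Length-corrected values were 0.20 and 0.31 and passed as well. The direct difference of −0.23 (SE 0.044, adjusted p = 3.0e-04) was −0.10 after length correction (adjusted p = 0.0667).

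HSPD1 (ENSG00000144381, chromosome 2, 197486581 to 197516737) lies head to head with HSPE1, and the nearest RefSeq start of HSPD1 is 105 bases from that of HSPE1. Its levels were 2274, 2125, 2226 and 2339 CPM in WT, 2319, 2293, 2251 and 2262 in shTST, and 2383, 2242, 2305 and 2272 in overTST. The groups overlap throughout. Log2 fold changes were 0.028 (SE 0.049, adjusted p = 0.75) and 0.060 (SE 0.053, adjusted p = 0.415). The ratio of HSPD1 to HSPE1 in TPM was 2.37 ± 0.0691 in WT, 2.08 ± 0.0452 in shTST and 1.81 ± 0.0781 in overTST (SD, n = 4 each). The 3 ranges, 2.27 to 2.44, 2.05 to 2.14 and 1.73 to 1.91, do not meet. The ratio is not corrected for the trend with length, and HSPD1 has 4245 exonic bases beside 1977 of HSPE1. After length correction shTST differed from overTST by −0.10 for HSPE1 (edgeR adjusted p = 0.0667) and −0.032 for HSPD1 (adjusted p = 0.65). The genes share 281 exonic bases on opposite strands, 14.2% of the length of HSPE1, and how reads there were counted is not given in the sources used here.

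**Figure D5:**
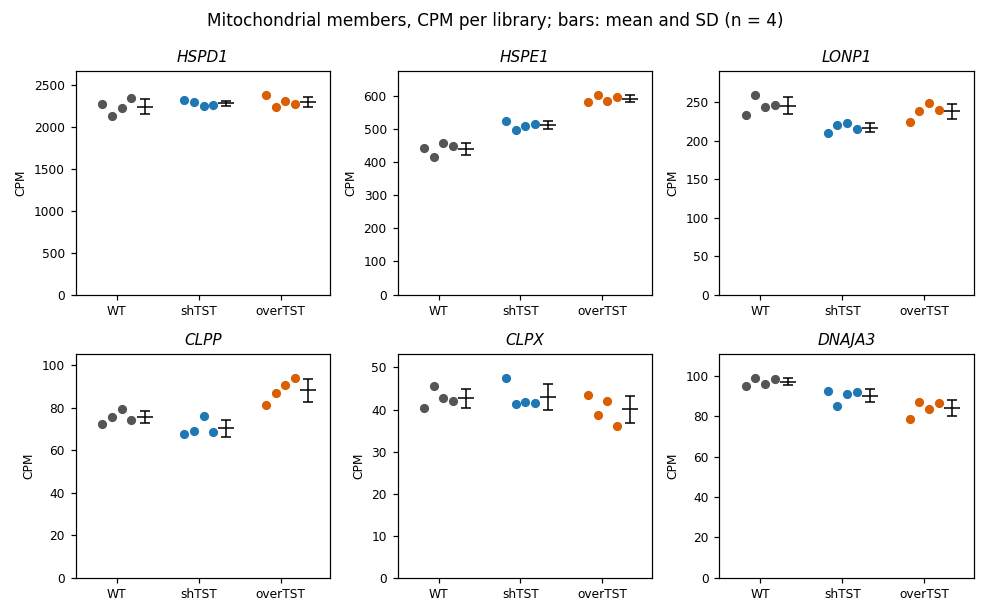
CPM per library (y axis, from 0) of 6 mitochondrial members in WT, shTST and overTST, each point a library, with the mean and SD of 4 beside it. HSPE1 steps up from WT to shTST to overTST while HSPD1 stays between 2125 and 2383 CPM, LONP1 is lowest in shTST and CLPP highest in overTST.

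LONP1 (ENSG00000196365, chromosome 19, 5691834 to 5720572) was at 233, 260, 244 and 247 CPM in WT, 210, 220, 223 and 216 in shTST, and 225, 239, 249 and 240 in overTST. All shTST libraries lie below all others. It fell by 0.17 on the log2 scale in shTST (SE 0.043, adjusted p = 0.00738) and was at −0.024 in overTST (SE 0.049, adjusted p = 0.74), and the lines differed by −0.15 (SE 0.045, adjusted p = 0.0119). CLPP (ENSG00000125656, chromosome 19, 6361452 to 6368908) was at 72.5, 75.8, 79.1 and 74.1 CPM in WT, 67.5, 69, 76.1 and 68.3 in shTST, and 81.2, 86.8, 90.4 and 93.9 in overTST. The overTST libraries are above all others, and shTST overlaps WT. CLPP rose by 0.25 in overTST (SE 0.055, adjusted p = 0.00111) and was at −0.10 in shTST (SE 0.049, adjusted p = 0.185). After length correction the rise was 0.13 with an adjusted p of 0.0561, while the direct difference of −0.34 (SE 0.053, adjusted p = 3.1e-05) became −0.24 (adjusted p = 4.7e-04).

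CLPX, the unfoldase that feeds CLPP, was at 0.012 and −0.067 and did not pass. The ratio of CLPX to CLPP in TPM was 0.236 ± 0.0106 in WT, 0.256 ± 0.0268 in shTST and 0.191 ± 0.0256 in overTST (SD, n = 4 each). It is not corrected for the trend with length, and the genes have 5461 and 2276 exonic bases. DNAJA3, the J-domain partner of HSPA9, had 95.2, 99, 96 and 98.7 CPM in WT, 92.6, 85.3, 90.9 and 92 in shTST, and 78.9, 87.3, 83.4 and 86.6 in overTST. Both lines lie below WT in every library. It fell by 0.19 in overTST (SE 0.050, adjusted p = 0.00504), or by 0.10 after length correction (adjusted p = 0.15), and was at −0.11 in shTST (SE 0.044, adjusted p = 0.104).

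AFG3L2, the core of the inner-membrane m-AAA protease, was at 0.034 in shTST and at −0.12 in overTST (adjusted p = 0.0756). It was higher in shTST than in overTST by 0.15 (SE 0.047, adjusted p = 0.0123), or by 0.086 after length correction (adjusted p = 0.159). Its partner SPG7 was at 0.0088 in shTST and −0.090 in overTST and did not pass, and the ratio of SPG7 to AFG3L2 in TPM was 0.477 ± 0.0441 in WT, 0.467 ± 0.00996 in shTST and 0.486 ± 0.0281 in overTST (SD, n = 4 each). HTRA2, a protease of the intermembrane space, was at −0.090 in shTST and 0.033 in overTST, TRAP1 was at −0.11 in shTST and −0.0094 in overTST, and none passed. Genes on the opposite strand cover 29.3% of the exonic bases of TRAP1, 16.1% and 20.8% of those of HTRA2, and 12.6% of those of AFG3L2, so these levels are uncertain without the strand setting.

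Per length, HSPD1 led the mitochondrial class in WT at 1478 ± 128 TPM, followed by HSPE1 at 624 ± 65.8 and HSPA9 at 337 ± 35.3 (SD, n = 4). LONP1 and TRAP1, at 135 ± 10.7 and 118 ± 7.19, and HTRA2 and DNAJA3, at 39.4 ± 3.96 and 38.5 ± 2.92, lie close together. CLPX and SPG7 were lowest, at 21.9 ± 2.03 and 21 ± 2.30.

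Among 22 other mitochondrial folding and quality control genes, 3 changed in shTST, 2 higher and 1 lower, and 5 changed in overTST, all higher, beside 16.1% and 33.9% of all genes. GRPEL2 and GRPEL1 encode exchange factors of HSPA9. GRPEL2 rose by 0.46 in shTST (SE 0.10, adjusted p = 0.00344) and GRPEL1 by 0.19 in overTST (SE 0.049, adjusted p = 0.00332). IMMP2L, a subunit of the inner membrane peptidase, rose in both, from 2.89 ± 0.246 CPM in WT to 4.16 ± 0.47 and 3.9 ± 0.416 (SD, n = 4 each), by 0.54 (SE 0.13, adjusted p = 0.00667) and 0.46 (SE 0.14, adjusted p = 0.0114). DNAJC19, of the protein import motor, rose by 0.28 in overTST (SE 0.081, adjusted p = 0.0091). ATAD3A, an inner membrane ATPase, fell by 0.14 in shTST (SE 0.044, adjusted p = 0.0312), and the adjusted p was between 0.0205 and 0.122 with 1 library left out.

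Compared directly, shTST and overTST differed in 12 members, or 30.8% beside 33.0% of 14883 genes. Groups did not overlap for 12 members as well, beside 29.1% of all genes. HSPA8, HSPH1, DNAJA1 and AFG3L2 were higher in shTST, and HSF1, HSPB1, BAG3, AHSA1, CCT7, HSPE1, LONP1 and CLPP were lower. After length correction 9 members passed, without HSPB1, BAG3, AHSA1, HSPE1 and AFG3L2, and with BAG1 and TRAP1 added. The steps in HSPA8 and HSPH1 kept their direction and their call under length correction, at 0.39 (adjusted p = 7.2e-05) and 0.22 (adjusted p = 0.00501).

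Of the 6 genes holding the longer heat shock motif, HSPA8 was lower in both lines and DNAJA1 was lower in overTST, and HSP90AA1, HSP90AB1, DNAJB6 and HSPD1 passed in neither. That is 1 of 6 in shTST and 2 of 6 in overTST, beside 16.1% and 33.9% of all genes. These calls are those of the main fit. After length correction HSP90AA1, at 0.18, and DNAJB6, at 0.16, also passed in overTST, both higher (edgeR adjusted p = 0.0191 and 0.0131). Under that correction 28.5% of all genes passed. HSPH1 and HSPA1A, which were lower in both lines in the main fit, had no match to the longer motif in their windows. The shTST call of HSPA1A was lost once HSPA1B was added, and that of HSPH1 without shTST replicate 4. A match or its absence says nothing of binding by HSF1.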

How the data were processed

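Each of the 12 libraries was deposited by the authors as whole-number read counts per Ensembl gene (57500 identifiers, 56410 with a symbol), not normalized. The submitters' processing notes name Trimmomatic 0.36, STAR 2.5.2b, featureCounts of Subread 1.5.2 and GRCh38. The strand setting and annotation release are not given in the sources used here, which leaves overlapping and duplicated genes uncertain. Groups came from the sample labels. The design text calls the replicates independent, but no label ties them to separate cultures, so p-values measure the spread between these libraries.

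The members, companion lists (72 genes, 71 matched), tests and naming rule were chosen with earlier results of these data known. Always named were TST, HSF1, HSPA1A, HSPA1B, HSPD1, HSPE1, LONP1 and CLPP, then the 4 members of each class, and the 3 companions of each class, with the smallest p in each comparison with WT. Members outside that rule and the prefoldin genes were added after their values were seen.

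Genes were filtered with filterByExpr, scaled by TMM and tested with edgeR 4.0.16 (quasi-likelihood) in R 4.3.3, at a Benjamini-Hochberg adjusted p of 0.05. Each line was fitted with WT in 8 libraries, and the lines were compared in a fit of all 12. SE is the log2 fold change over the square root of F. CPM were TMM-scaled over 12 libraries, and TPM, from the deposited exonic lengths, only compare genes within a library. Those lengths merge all annotated exons of a gene and need not be the length of the transcript expressed. Levels, ranks and ratios in TPM therefore do not count transcripts. Ratios in TPM were not corrected for the trend with length. The length correction removed a lowess trend (span 0.3) per library. Other alternatives were DESeq2 1.42.0, RLE and upper-quartile scaling, no filter, a minimum CPM of 1 in 4 libraries, fits with other libraries, the replicate number as a block, HSPA1A and HSPA1B added, and leaving out each library. The fits were tested on simulated data. Motifs were searched in RefSeq windows (GRCh38.p14) with Python 3.11.15. Depth of 22911380 to 45120508 counts limits counting error, and the biological coefficient of variation was 5.85%, 6.41% and 6.02% in the 3 comparisons.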

Additional observations from a re-analysis of the deposited data

Results flagged for a closer look

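Among 117 groups of 4 libraries, 3 for each member, 7 had a library whose gap to its nearest neighbour was too large a part of the range of its group by Dixon's test at the 95% level, which chance passes in about 1 of 20 groups. HSPA8 was at 606 CPM in overTST replicate 1 and at 483 to 499 in the other libraries of that group. HSPA1B was at 71.4 CPM in shTST replicate 4 and at 87 to 89.5 in the others. AHSA1 was at 173 CPM in WT replicate 3 beside 165 to 166, and at 191 CPM in overTST replicate 4 beside 181 to 182. CLPP was at 76.1 CPM in shTST replicate 3 beside 67.5 to 69, CLPX at 47.5 CPM in shTST replicate 1 beside 41.2 to 41.8, and HTRA2 at 44.9 CPM in overTST replicate 2 beside 41.5 to 41.8. Without overTST replicate 1, HSPA8 kept its call in overTST, and over all libraries left out in turn its log2 fold change stayed between −0.81 and −0.70.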

How the results depend on the processing

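Counts of changed members stayed within 1.5 times their values in every setting for shTST against WT. In overTST against WT, length correction gave 11 heat shock members (with and without the replicate block), 2 CCT members (with and without the block) and 1 mitochondrial member. Without the block it gave 28.5% of all genes. Fitting without a filter gave 0 CCT members, since CCT7 then had an adjusted p of 0.0951. The share of all genes without a filter is not given here. With single libraries left out, CCT members changed in overTST numbered 0 to 3, with 0 without WT replicate 1, WT replicate 2 or overTST replicate 4 and 3 without overTST replicate 1. Calls over all genes moved as well, from 3979 to 5263 in these fits, beside 4893 in the main fit. DESeq2 gave 2 CCT members in the direct comparison, beside 37.8% of all genes it tested. Upper-quartile scaling gave 13 members in overTST, 8 higher and 5 lower, beside 34.6% of all genes under that scaling.

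Log2 fold changes close to 0 changed sign. HSPA1B in shTST was 0.031 without WT replicate 2 and 0.048 without shTST replicate 4. LONP1 in overTST was 0.0028 with upper-quartile scaling, 0.014 with length correction (0.014 also with the block) and 0.0028 without overTST replicate 1. PFDN1 in shTST was −0.0083 without a filter, −0.012 with length correction, −0.011 with the block added, −0.029 without WT replicate 2 and −4.4e-05 without shTST replicate 3. VBP1 in overTST was −0.094 with length correction and −0.10 with the block added. HSPA1A in the direct comparison was −6.5e-05 with DESeq2, −0.0067 with upper-quartile scaling, and −0.054, −0.02, −0.047 and −0.054 without shTST replicates 1 and 2 and overTST replicates 1 and 2. With single libraries left out in turn, these log2 fold changes ran from −0.083 to 0.048 for HSPA1B, −0.05 to 0.0028 for LONP1, −0.029 to 0.031 for PFDN1 and −0.054 to 0.075 for HSPA1A. None of these passed the test, and the cause of each was not tested.

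The main fits did not pair samples by replicate number. Correlations of same-numbered deviations were −0.0526 to 0.0803. Libraries correlated best with their own number in 3 of 4 cases for WT and shTST and 1 of 4 for the other pairs. For WT and shTST, differently numbered libraries correlated at −0.0627 to 0.0314. With 4 libraries per group this check cannot exclude pairing. With the replicate block, 7 members changed in shTST and 12 in overTST, TRAP1 in shTST (adjusted p = 0.0435) and HSF1 in overTST (adjusted p = 0.0297) being added. The share of all genes with the block is not given here. The block moved no other count by over 1.5 times. Over all genes named, leaving out 1 library took away a call in 17 fits for shTST, 5 for overTST and 11 for the direct comparison, and added one in 2, 6 and 4. Of the 39 members, length correction took away 4 calls and added 7 in overTST, took away 5 and added 2 in the direct comparison, and changed none in shTST. Among members, the lowest levels and largest SEs were those of HSPB8 and DNAJB4.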
